A study of Mus musculus with 24 samples.

Results

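The cytoplasmic ribosomal proteins were examined here in the medial prefrontal cortex (mPFC) of 24 mice. Members were chosen by name and type alone: genes listed as protein coding whose name begins with Rpl, Rps or Rplp followed by a digit, together with *Rpsa*, without the S6 kinases (Rps6k) and names that mark pseudogenes. The rule gave 82 of the 15456 genes in the table (13913 of them protein coding), with 33 small-subunit names and 49 large-subunit names. Of these, 77 are standard subunits and 5 are not: *Rpl7l1*, *Rpl22l1*, *Rpl36al*, *Rps27l* and *Rps19bp1*. The mice were male BALB/C animals at postnatal week 11, with 6 per group. Control mice are labelled as untreated and, per the methods, received phosphate-buffered saline. The duloxetine group was injected daily with duloxetine, a serotonin and norepinephrine reuptake inhibitor used against depression. The *R. flavefaciens* group was given the gut bacterium *Ruminococcus flavefaciens* by gavage, and the combined group ("both") received the bacterium and duloxetine. The design asks how gene expression in the frontal cortex responds to the drug with and without the bacterium. The tissue was a punch of mPFC, frozen without sorting of cells, so each library is a mixture of neurons, glia and vessel cells. Between 12811413 and 15607343 reads per mouse fell in the listed genes (median 14455107). All members were far above the low-value filter: the least abundant, *Rpl36al*, had a mean of 35.3 normalized counts over the 24 mice.

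Ribosomal proteins assemble with ribosomal RNA into the small subunit, which decodes the messenger RNA, and the large subunit, which joins amino acids and carries the exit tunnel for the new chain. Cells make the proteins in matched amounts, and their mRNAs are known for a run of pyrimidines (C or T) at the very start of the transcript, the TOP sequence, through which mTORC1 controls how much they are translated. In neurons they serve protein synthesis in the cell body and, in part, in dendrites and axons.

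Because the TOP sequence is what these mRNAs are best known to share, transcription start sites are shown for a few members. Windows were read from RefSeq promoters (GRCm38.p6), each with 30 bases before and 30 bases from the annotated start, 5′ to 3′ on the strand of the gene. Capitals mark the longest run of C or T that touches the 15 bases on either side of the start. The first 4 have the longest runs among members whose RefSeq start lies within 10 bases of the GENCODE start. *Rpl36a* had the smallest p against control in such members. *Rpl7l1* is the single member that limma called in any comparison with all 24 mice, all groups and no block on mouse label numbers in the fit. These last choices were made after the values were seen.
Rpl34 (chr3:130730308-130730367, minus strand): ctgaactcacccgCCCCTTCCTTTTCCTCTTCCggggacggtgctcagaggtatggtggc
Rpl11 (chr4:136053364-136053423, minus strand): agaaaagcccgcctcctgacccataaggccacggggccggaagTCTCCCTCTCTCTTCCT
Rpl31 (chr1:39367821-39367880, plus strand): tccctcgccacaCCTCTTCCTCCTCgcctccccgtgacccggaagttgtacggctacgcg
Rpl19 (chr11:98026894-98026953, plus strand): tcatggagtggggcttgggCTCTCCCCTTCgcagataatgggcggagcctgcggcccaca
Rpl36a (chrX:134585624-134585683, plus strand): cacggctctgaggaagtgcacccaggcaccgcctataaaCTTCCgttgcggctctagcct
Rpl7l1 (chr17:46782627-46782686, minus strand): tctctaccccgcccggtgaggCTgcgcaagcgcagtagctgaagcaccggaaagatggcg

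The run was 20 bases long in *Rpl34*, 17 in *Rpl11*, 13 in *Rpl31* and 11 in *Rpl19*, but 5 in *Rpl36a* and 2 in *Rpl7l1*. Among these, the run of *Rpl34* alone covers the annotated first base. Those of *Rpl31*, *Rpl19* and *Rpl7l1* end before it, and those of *Rpl11* and *Rpl36a* begin inside the transcript. Of the 82 members, 62 had a RefSeq promoter entry. A run of at least 8 C or T letters that touches the 15 bases on either side of the start, on the strand of the gene only, was found in 29 of the 62 (46.8%), against 17.6% of all 32851 promoter entries. A run of that length lay over the annotated first base itself in 15 of the 62 members (24.2%), against 3.86% of all entries. The median longest run was 7 bases in members and 5 in all entries. Annotated starts can be off by several bases, and for 22 members the RefSeq and GENCODE starts lay within 10 bases of each other. The match is a description of letters. The median log2 fold change between *R. flavefaciens* and control, described further on, was 0.22 for the 29 members with the run, 0.23 for the 33 with an entry but no run, and 0.22 for the 20 without an entry.

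Levels per kb of transcript spread widely, although the proteins enter the ribosome in matched amounts. As the mean normalized count per kb over 24 mice, the members had a median of 1691 against 114 for all protein-coding genes tested. The highest standard subunit was *Rps15* with 5761 per kb. *Rps2* followed with 5401, the stalk protein gene *Rplp1* with 4479 and *Rpl13* with 4225. The lowest standard subunit was *Rpl24* with 178 per kb, a ratio of 32.3 between the ends of the list. Only 5 standard subunits were under 500 per kb.

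**Figure D1:**
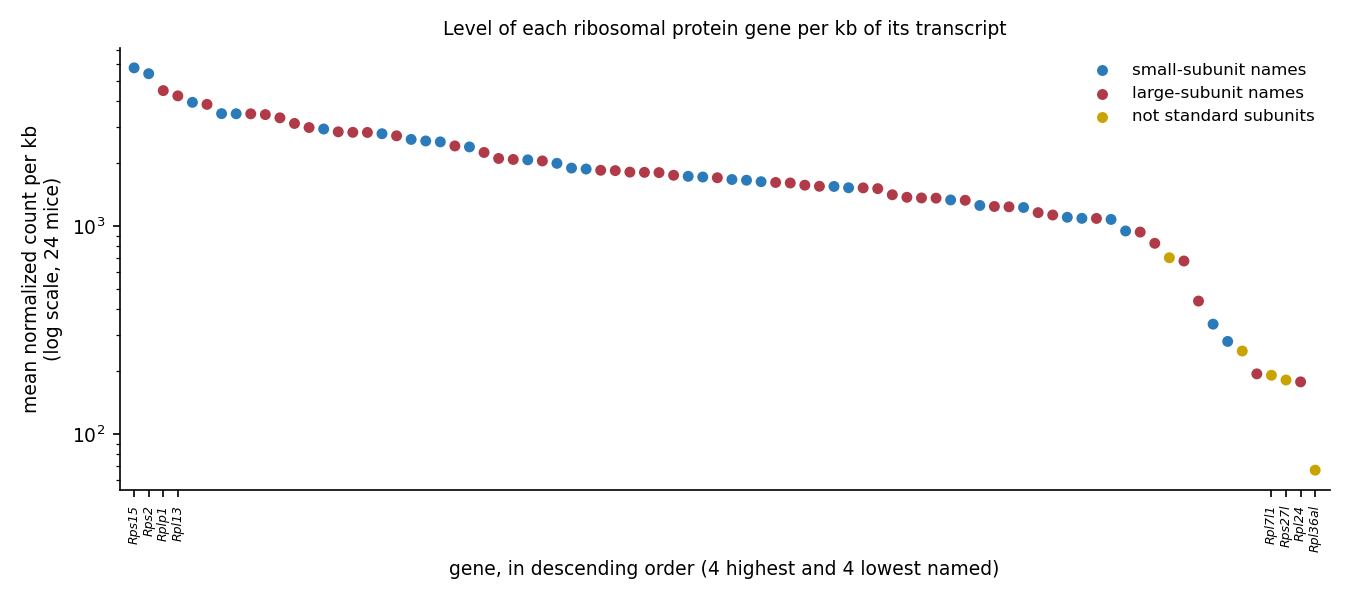
Mean normalized count per kb of transcript over 24 mice (log scale) for each of the 82 ribosomal protein genes in descending order (the 4 highest and 4 lowest are named), coloured as small-subunit names, large-subunit names and names that are not standard subunits. The bulk of the genes lies between 1230 (lower quartile) and 2558 (upper quartile), and a short tail falls below 500.

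Sequence shared with other genes limits how these levels can be read. Of all 50-base windows in a member's transcript, a median of 53.9% occurred also in another gene, and 45 members had more than 50% of such windows. For *Rpl24* the share was 81.7%, and the gene overlaps an annotated read-through gene, as do *Rpl13a* and *Rpl36al*. The share was 56.8% for *Rps10*, with the largest overlap in a gene named *RPS10-NUDT3*, and 85.5% for *Rpl36a*. *Rps19bp1* had no window in another gene. *Rps15a* has an annotated transcript of 5179 bases, far longer than the member median of 777.5, so that 1444 mean normalized counts became 279 per kb. Across the 82 members, the share of shared windows and the level per kb were almost unrelated (Spearman's rho 0.06, members as points). How reads that match several genes were assigned is not given in the sources used here, so levels of such members are uncertain.

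The members that are not standard subunits were all below the median of the list, but 4 of the 5 were above that of all protein-coding genes. *Rpl36al*, a paralog of *Rpl36a*, had 67.1 normalized counts per kb, the lowest of all members. *Rps27l*, a paralog of *Rps27* known as a target of p53, had 182. *Rpl7l1*, a paralog of *Rpl7*, had 192. *Rps19bp1*, which encodes a partner of the Rps19 protein that also activates the deacetylase Sirt1, had 251, and *Rpl22l1*, the paralog of *Rpl22*, had 704. *Rps4l*, another paralog in the table, is annotated as a pseudogene and fell outside the rule.

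A pair of libraries of the *R. flavefaciens* group stood apart from the rest. In mouse 9_3, 79 of the 82 members were at their highest value of all 24 mice, and the median member lay 0.48 above its own mean on the log2 scale. The same library was high in short transcripts and low in long ones in general: the median deviation of 964 other genes of any type under 1000 bases was 0.31, and that of 2785 genes over 5000 bases was -0.27. Mouse 8_4 had a median member deviation of 0.22 and carried the highest summed markers of striatum and choroid plexus of all libraries. Its striatal sum was 4720 normalized counts against 2748 in the next library, and its choroid plexus sum was 791 against 152. At the other end, mouse 5_4 of the duloxetine group held the lowest value for 46 members. Most counts and medians for the *R. flavefaciens* group, and the values of most members named, are therefore given with and without mice 8_4 and 9_3. The medians by promoter run and by subunit are given with all mice only. The pair was set aside after the values were seen. Its mice had the highest median member deviations of their group, so leaving them out lowers the members partly by choice.

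**Figure D2:**
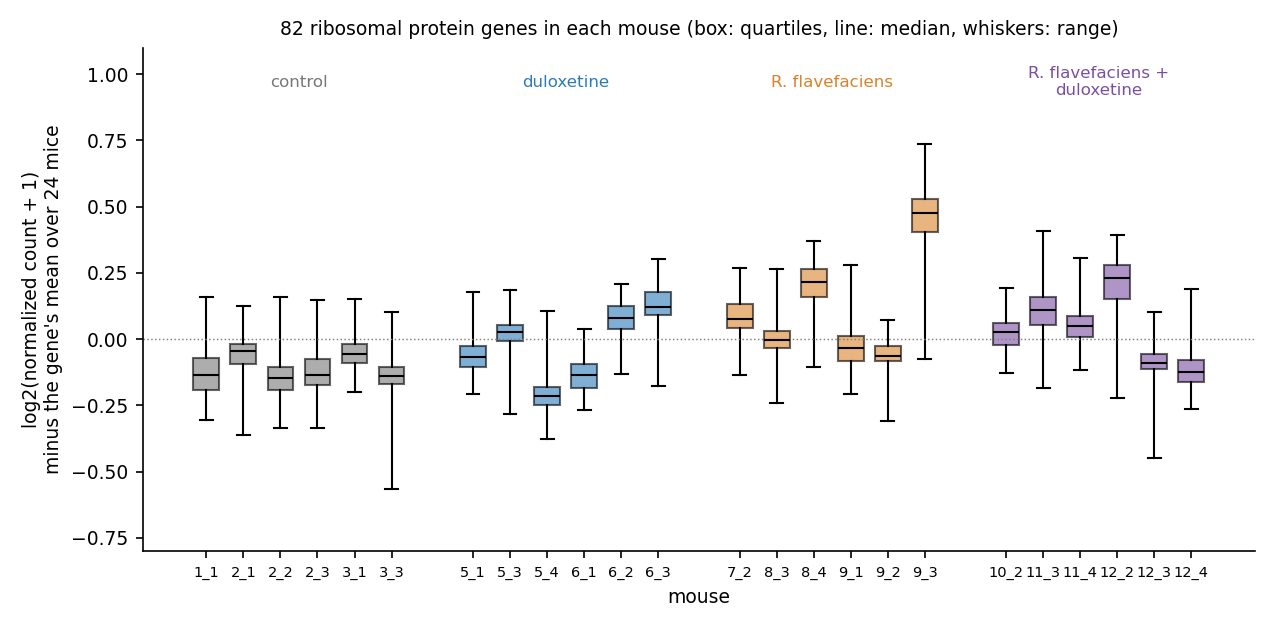
Deviation of the 82 ribosomal protein genes from their own mean over 24 mice (log2 of normalized count + 1), as 1 box per mouse (quartiles, median and full range), in 4 groups of 6. The 6 control medians lie close together between -0.15 and -0.05, while the treated groups spread, with mouse 9_3 highest at 0.48 and mouse 5_4 lowest at -0.21.

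The share of all normalized counts that fell in the 82 genes summarises the same pattern on a linear scale. Control mice ranged from 0.839% to 0.892% with a median of 0.855% (mean 0.862% ± 0.0227, SD, n = 6). Duloxetine mice ranged from 0.798% to 1.02% with a median of 0.912% (0.912% ± 0.0856, SD, n = 6). In the *R. flavefaciens* group the shares were 0.882%, 0.896%, 0.930%, 0.984%, 1.13% and 1.32%, with the last being mouse 9_3 and the one before it mouse 8_4 (1.02% ± 0.170, SD, n = 6). The combined group ranged from 0.850% to 1.08% with a median of 0.967% (0.961% ± 0.0872, SD, n = 6). Controls were the tightest group. Each treated group overlapped the control range. In such bulk tissue, fewer cells of a type and less RNA per cell cannot be told apart, and this holds for every result that follows.

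Compared to control, all 82 members had a higher mean in mice given *R. flavefaciens* alone, and none passed the adjusted threshold. The median log2 fold change of the members was 0.22, a 16.7% higher level, beside 0.00 for all 14974 genes tested, and single members ranged from 0.04 (*Rpl10*) to 0.37 (*Rps21*). Small-subunit members (median 0.23) and large-subunit members (median 0.21) gave near-equal values. By limma on log2(normalized count + 1), with Benjamini-Hochberg adjustment over all genes tested, 0 members were called at 0.05, as against 0.0267% of all genes, and the smallest adjusted p was 0.0727. At an unadjusted p under 0.05, 71 members were higher and 0 lower, where 8.86% of all genes were higher. At the looser adjusted threshold of 0.1, 20 members were higher, against 1.78% of all genes. DESeq2 on the recovered reads called 23 members higher, against 1.65% of all genes, and edgeR on the same reads called 0. Limma with a random block on the first number of the mouse labels called 6 members (1.48% of all genes): *Rpl5*, *Rpl27*, *Rpl36a*, *Rpl39*, *Rpl41* and *Rps10*. What that number marks is not given, and no such number is shared between groups, so it cannot be told apart from treatment. The fitted correlation was slightly negative (-0.05), and the block does not adjust the comparison for a cage or batch. The count of calls thus rested on the tool, on that block, and on mice 8_4 and 9_3. Leaving both mice aside, DESeq2 called 0 members (0.0267% of all genes) and edgeR 0. Leaving out 1 of the other mice of the group went the opposite way, with limma calling 18 members without mouse 9_2 (4.11% of all genes), 8 without mouse 8_3 (2.85%) and 5 without mouse 9_1 (1.6%).

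**Figure D3:**
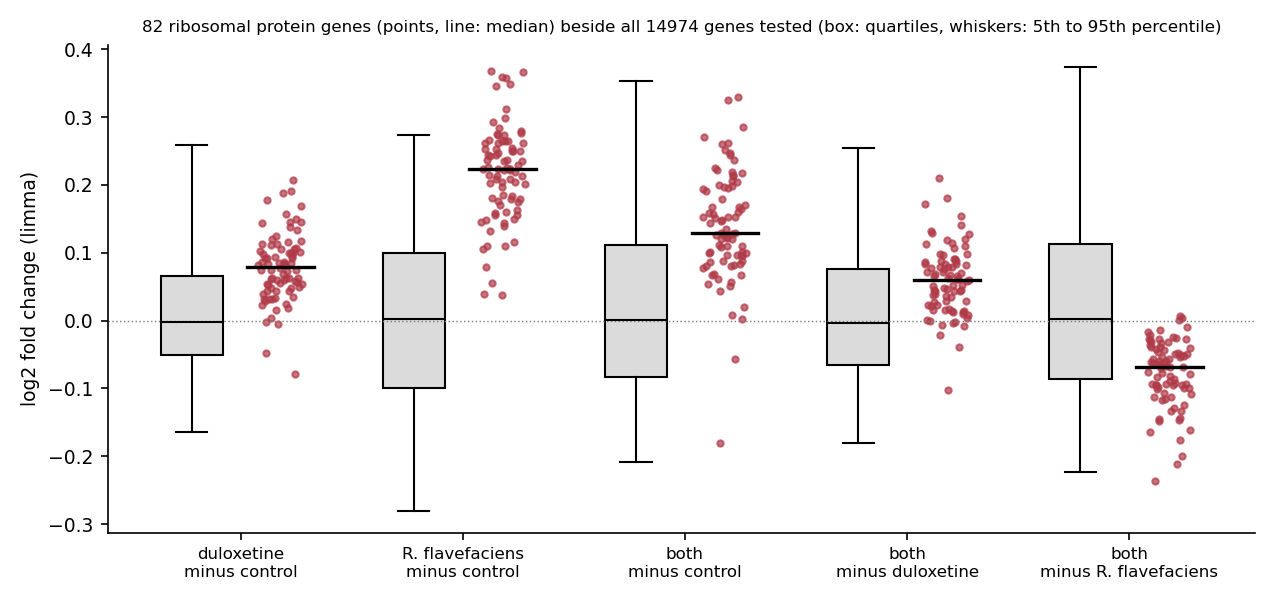
Limma log2 fold changes (log2 of normalized count + 1) of the 82 ribosomal protein genes (points, thick line at their median) in 5 comparisons, beside all 14974 genes tested (box: quartiles; whiskers: 5th to 95th percentile). Medians of the members are 0.08, 0.22, 0.13, 0.06 and -0.07 from left to right, and the comparisons share mice, so they are not independent of each other.

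The difference was smaller without mice 8_4 and 9_3. Leaving both aside, 79 of 82 members were still higher, but the median log2 fold change was 0.10 and 15 members had an unadjusted p under 0.05, where 4.29% of all genes were higher at that p. Without mouse 9_3 alone the median was 0.15 with 38 members at that p (5.38% of all genes), and without mouse 8_4 alone it was 0.20 with 59 (8.15%). Limma called 0 members in each of these. The groups of 6 did not overlap for 15 members in the full set, against 0.788% of all genes, among them *Rpl4*, *Rpl5*, *Rpl21*, *Rpl22*, *Rpl23*, *Rpl34*, *Rpl35a*, *Rpl36a*, *Rpl38*, *Rpl39*, *Rpl41*, *Rps10*, *Rps14* and *Rps24*. For these genes even the lowest mouse with the bacterium was above the highest control.

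The length of the transcript moved with the result as well. Members are short, with a median transcript of 777.5 bases against 2959 for all genes tested. Among the 656 other protein-coding genes under 1000 bases, 579 were higher in *R. flavefaciens* than in control with a median log2 fold change of 0.17, 272 of them were higher and 6 lower at an unadjusted p under 0.05, and limma called 1. Without mice 8_4 and 9_3, 522 of the 656 were higher with a median of 0.10. Over genes, the log2 fold change and transcript length had a Spearman's rho of -0.39 in the 82 members and -0.46 in 14876 other genes. Genes share the same libraries and are not replicates. When a smooth trend on transcript length was removed from each library, the median of the members was 0.07, with 71 of 82 higher. The members at an unadjusted p under 0.05 were then 21 higher and 1 lower, where 5.29% of all genes were higher. The part of transcript length in the result was not tested.

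**Figure D4:**
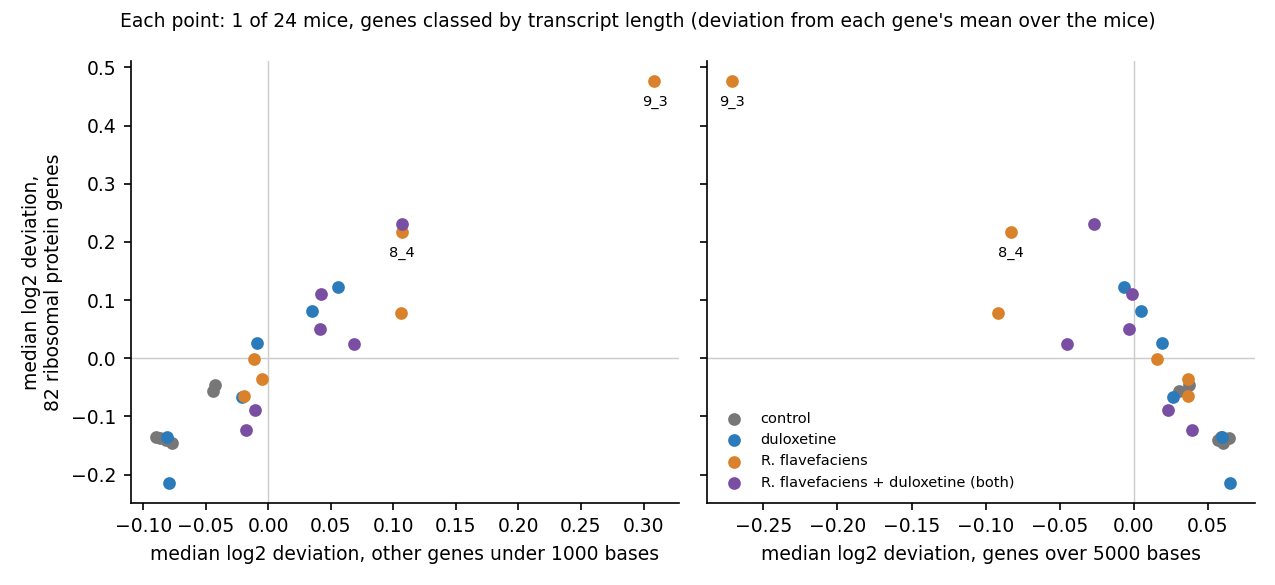
Each point is 1 of 24 mice, with the median log2 deviation of the 82 ribosomal protein genes on the vertical axis against that of 964 other genes under 1000 bases (left) and of 2785 genes over 5000 bases (right). Mice high in the ribosomal genes are high in other short genes and low in long ones, with mouse 9_3 at 0.48, 0.31 and -0.27, and the 6 controls sit towards the opposite end.

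The members with the smallest p in this comparison were mostly small proteins of the large subunit. *Rpl41* (chr10:128548114-128549305), which encodes the smallest ribosomal protein, had 1528, 1561 and 1610 normalized counts in controls (lowest, median and highest) and 1771, 1865 and 2905 with *R. flavefaciens*. The lowest treated mouse lay above every control, and mouse 9_3 lay far above the others. Its log2 fold change was 0.37 ± 0.09 (SE; limma adjusted p = 0.0727), with all 6 treated mice above all controls and an exact permutation p of 0.00216, the smallest that 924 groupings of 6 and 6 can give. Without mice 8_4 and 9_3 it was 0.22 (limma adjusted p = 0.402).

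*Rpl36a* (chrX:134585654-134588062) had 427, 476 and 506 normalized counts in controls and 515, 571 and 806 with *R. flavefaciens*. The groups were separate by a narrow gap. The log2 fold change was 0.35 ± 0.09 (SE; adjusted p = 0.0727 by limma). For *Rpl39* (chrX:37082520-37085402), whose protein lines the exit tunnel, the values were 684, 704 and 794 in controls and 847, 854 and 1199 in treated mice, again without overlap, and the log2 fold change was 0.36 ± 0.09 (SE; adjusted p = 0.0727 by limma). Leaving mice 8_4 and 9_3 aside gave 0.24 for *Rpl36a* and 0.25 for *Rpl39*.

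*Rpl27*, of the large subunit, ranged from 358 to 410 normalized counts in controls (median 380) and from 405 to 572 with the bacterium (median 458), so that 5 of 6 treated mice were above all controls. Its log2 fold change was 0.27 ± 0.07 (SE; limma adjusted p = 0.0730). *Rps10*, of the small subunit, ranged from 1276 to 1395 (median 1316) and from 1435 to 2027 (median 1497), with no overlap and a log2 fold change of 0.27 ± 0.07 (SE; limma adjusted p = 0.0752). Without mice 8_4 and 9_3 the log2 fold change was 0.185 for *Rpl27* (limma adjusted p = 0.459) and 0.14 for *Rps10* (limma adjusted p = 0.493). With all mice, each of these 5 genes passed 0.05 by DESeq2, with adjusted p between 0.0163 (*Rpl41*) and 0.0234 (*Rpl27*), and none of the 82 did so without the pair.

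**Figure D5:**
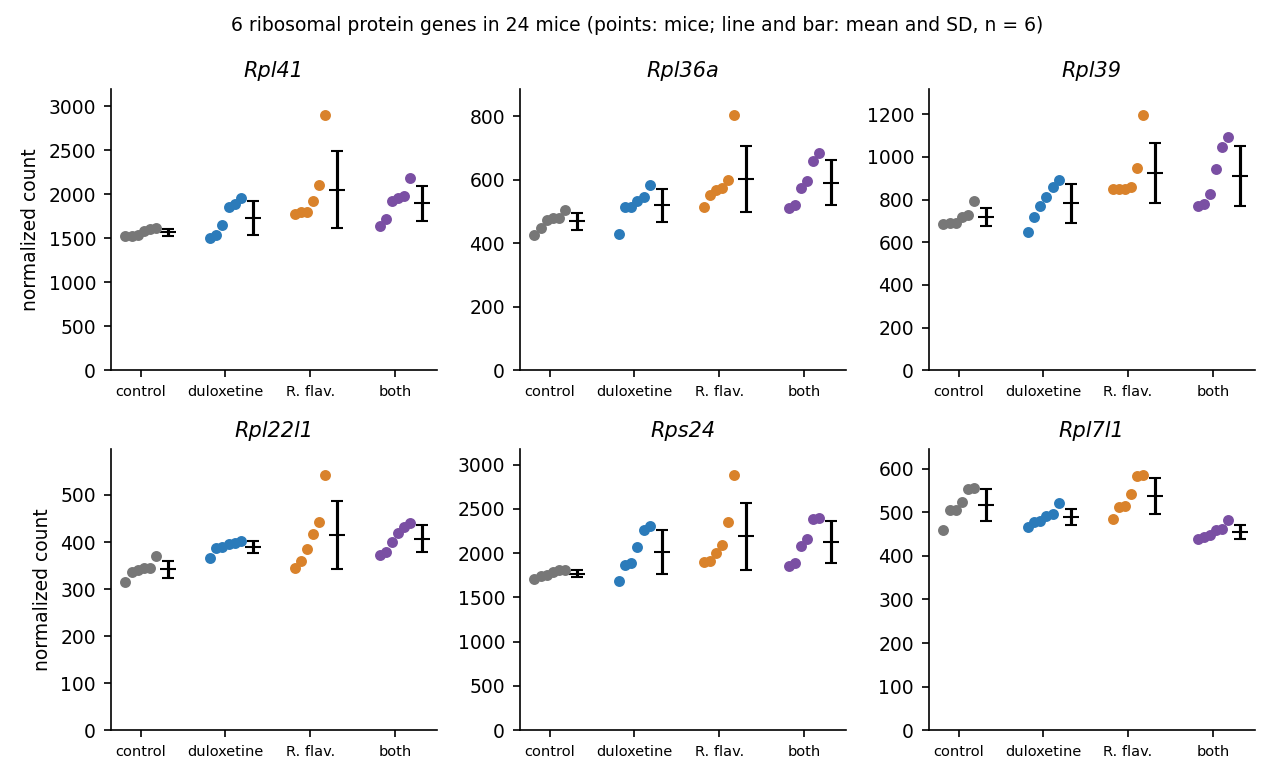
Normalized counts of 6 ribosomal protein genes in 24 mice, with 1 point per mouse and the mean and SD of each group of 6 beside it; the vertical axes start at 0. In the upper row the *R. flavefaciens* mice lie above the controls with mouse 9_3 at the top, and *Rpl7l1* at the lower right is lowest in the combined group.

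The same comparison is given next by the role of the members, and roles were not tested against each other. In the stalk, which recruits translation factors, *Rplp1* had a log2 fold change of 0.31 ± 0.09 (SE), *Rplp0*, the base of the stalk, 0.18 ± 0.07 and *Rplp2* 0.16 ± 0.09. *Rplp1* and *Rplp0* had an unadjusted p under 0.05, and *Rplp2* did not. Of the proteins that dock with 5S ribosomal RNA and are known to bind Mdm2 when left unassembled, *Rpl5* had 0.23 ± 0.06 and *Rpl11* 0.26 ± 0.08. All 8 genes for proteins around the exit tunnel (*Rpl4*, *Rpl17*, *Rpl19*, *Rpl23a*, *Rpl26*, *Rpl31*, *Rpl35* and *Rpl39*) had an unadjusted p under 0.05, with a median log2 fold change of 0.24 and the lowest value in *Rpl4* (0.15). None of them was called by limma after adjustment in the fit without a block on label numbers. Without mice 8_4 and 9_3, *Rplp1* had 0.17, *Rplp0* 0.08, *Rplp2* 0.01, *Rpl5* 0.14 and *Rpl11* 0.14, and the exit tunnel genes had a median of 0.13, with 1 of 8 (*Rpl39*) at an unadjusted p under 0.05. Of all genes, 8.86% were higher at that p with all mice and 4.29% without the pair.

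In the small subunit, *Rps6*, the substrate of S6 kinase whose phosphorylation is widely read as mTORC1 activity, had 2200, 2305 and 2467 normalized counts in controls (lowest, median and highest) and 2371, 2480 and 3256 with *R. flavefaciens*. The groups overlapped, and the log2 fold change was 0.18 ± 0.07 (SE; limma adjusted p = 0.148). *Rpsa*, which also acts as a laminin receptor at the cell surface, had 0.20 ± 0.08 (SE; limma adjusted p = 0.163), and *Rps14*, in the platform of the small subunit, 0.27 ± 0.08 (SE; limma adjusted p = 0.0942). *Rps2* and *Rps15*, the most abundant per kb, had 0.27 and 0.25. Leaving mice 8_4 and 9_3 aside, the values were 0.08 for *Rps6*, 0.09 for *Rpsa*, 0.16 for *Rps14*, 0.15 for *Rps2* and 0.11 for *Rps15*.

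For 11 members the unadjusted p was not under 0.05. They included *Rpl10* (log2 fold change 0.04), *Rpl24* (0.15) and *Rpl13a*. *Rpl10* shares 92.1% of its windows with other genes, and the share was as high in *Rpl5* (93.8%) and *Rpl35* (95.1%), which had an unadjusted p under 0.05. *Rps15a* (0.04) has the longest annotated transcript. *Rpl6*, *Rpl7l1*, *Rplp2*, *Rps4x*, *Rps26* and *Rps27l* were also among them. Of the members that are not standard subunits, *Rpl36al* had 0.36 ± 0.14 (SE; limma adjusted p = 0.160), *Rpl22l1* 0.27 ± 0.08 (0.0816) and *Rps19bp1* 0.16 ± 0.07 (0.226), whereas *Rps27l* had 0.08 ± 0.11 and *Rpl7l1* 0.06 ± 0.05. With mice 8_4 and 9_3 left out, the values in the same order were 0.32, 0.21, 0.10, 0.03 and 0.06. Of the ribosomal proteins that the naming rule leaves out, *Fau*, which encodes eS30 fused to a ubiquitin-like protein, had 0.29 ± 0.08, and *Rack1*, a scaffold on the small subunit, had 0.12 ± 0.05.

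When mice given both treatments were compared to control, 80 of 82 members were higher. The median log2 fold change was 0.13 (all genes 0.00), ranging from -0.18 (*Rpl7l1*) to 0.33 (*Rpl39*). Limma called 0 members, against 0.1% of all genes, with a smallest adjusted p of 0.108. At an unadjusted p under 0.05, 28 members were higher, where 8.08% of all genes were, and 1, *Rpl7l1*, was lower. DESeq2 called *Rpl36a* and *Rpl39*, against 0.741% of all genes called higher, and edgeR called 0. Mice 8_4 and 9_3 are in neither group, but they enter the estimate of the spread. Leaving them aside left the median at 0.13 with 41 members higher at an unadjusted p under 0.05 (9.36% of all genes), beside 0.10 and 15 members for *R. flavefaciens* alone, whereas with all mice the latter had the higher median. The pair stood highest of its group in the members, so this change of order follows partly from leaving it out. Without the pair, limma called 7 members, all higher: *Rpl22l1*, *Rpl36a*, *Rpl38*, *Rpl39*, *Rpl41*, *Rps24* and *Rps25*. Of all genes, 339 were called in that fit (2.26%), beside 15 with all mice. With only these groups in the fit, limma called 5 members (1.31% of all genes) and DESeq2 called 20 (4.66% of all genes), of which 19 were higher. The 28 members at an unadjusted p under 0.05 became 10 without mouse 12_2 of the combined group (5.93% of all genes). With the trend on transcript length removed, 58 of 82 members were higher, the median was 0.04, and 9 were higher and 3 lower at that p (7.45% and 9.26% of all genes).

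*Rpl36a* had 512, 585 and 684 normalized counts in the combined group (lowest, median and highest), all above the highest control of 506. Its log2 fold change was 0.33 ± 0.09 (SE; limma adjusted p = 0.108). *Rpl39* ranged from 768 to 1094 (median 884), with 4 of 6 mice above every control and a log2 fold change of 0.33 ± 0.09 (SE; limma adjusted p = 0.112). *Rps24*, of the small subunit, ranged from 1709 to 1808 in controls (median 1770) and from 1854 to 2402 in the combined group (median 2125), without overlap (log2 fold change 0.26 ± 0.09, SE; limma adjusted p = 0.159). *Rpl22l1* did not overlap either, at 315 to 369 (median 343) in controls and 373 to 440 (median 410) with both treatments (log2 fold change 0.25 ± 0.08, SE; limma adjusted p = 0.128). The groups were separate for 6 members (*Rpl22l1*, *Rpl35a*, *Rpl36a*, *Rpl38*, *Rpl41* and *Rps24*), against 0.882% of all genes.

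Duloxetine alone gave the smallest differences from control. Of the 82 members, 78 were higher, with a median log2 fold change of 0.08 (all genes -0.0018), and limma called 0, as it did among all genes (0%), with every adjusted p at 1.00. The median was 0.0463 without mouse 6_3 of the duloxetine group, with 71 members higher, and 0.0304 with the length trend removed, with 64 higher. It was 0.111 without mouse 5_4 of the same group, with 79 higher. DESeq2 and edgeR called 0 members as well. At an unadjusted p under 0.05, 1 member was higher, where 2.2% of all genes were. That member was *Rpl22l1*, with 366, 393 and 403 normalized counts under duloxetine (lowest, median and highest) against 315, 343 and 369 in controls. The count at that p was 9 without mouse 5_4 (2.91% of all genes higher), 8 without mouse 9_3 (2.63%), 10 without mice 8_4 and 9_3 (2.76%) and 13 with only these groups in the fit (3.31%), and limma called 0 in each. In all, 5 of 6 duloxetine mice were above every control, and the log2 fold change was 0.19 ± 0.08 (SE). *Rps24* (0.18), *Rps29* (0.21), *Rps25* (0.15) and *Rpl35a* (0.15) followed, each with groups that overlapped. The groups were separate for 0 members, against 0.167% of all genes.

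Adding the bacterium to duloxetine was compared in mice that both received the drug. Of the members, 74 were higher in the combined group, with a median log2 fold change of 0.06 (all genes -0.0031). The median was 0.0212 without mouse 12_2 (58 higher), 0.0214 without mouse 5_4 (56 higher) and 0.0065 with the length trend removed (45 higher), but 0.0878 without mouse 6_3 (79 higher). Limma, DESeq2 and edgeR called 0, as did limma over all genes (0%), and 1 member, *Rpl39*, was higher at an unadjusted p under 0.05, where 3.02% of all genes were. The count was 6 without mouse 12_4 (4.33% of all genes), 5 without mouse 6_3 (3.3%), 6 without mice 8_4 and 9_3 (3.85%), and 0 without mouse 12_2 or mouse 5_4. *Rpl39* ranged from 647 to 892 normalized counts with duloxetine (median 791) and from 768 to 1094 with both, so that 3 of 6 mice were above all duloxetine mice (log2 fold change 0.21 ± 0.09, SE). *Rpl36a* (0.18), *Rps18* (0.17) and *Rpl31* (0.15) came next among the members that were higher. The groups overlapped for all 82 in the higher direction, where 0.127% of all genes were separate. This comparison shares no mouse with that of *R. flavefaciens* and control, and over the 82 members the log2 fold changes of both had a Spearman's rho of 0.59, as a description across genes.

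Averaged over duloxetine, the effect of *R. flavefaciens* (12 mice against 12) was positive in 81 members, with a median log2 fold change of 0.14. Limma called 0 members, against 0.0267% of all genes, and 55 members were higher at an unadjusted p under 0.05, where 7.68% of all genes were. DESeq2 called 5 members (*Rpl12*, *Rpl31*, *Rpl36a*, *Rpl39* and *Rpl41*), against 0.875% of all genes, and edgeR 0. Leaving mice 8_4 and 9_3 aside gave a median of 0.08 and 31 members at that p (4.45% of all genes), and removing the length trend gave 0.0426, with 65 higher, and 14 members higher and 1 lower at that p (5.29% and 7.53% of all genes). The interaction, which asks whether the bacterium acted differently with the drug, was negative in 81 members (median -0.16). Limma called 0 of them, as of all genes (0%), and DESeq2 and edgeR called 0. At an unadjusted p under 0.05, 5 were lower (*Rpl5*, *Rpl7l1*, *Rpl27*, *Rps10* and *Rps12*), where 3.67% of all genes were. That count was 23 without mouse 5_4 (4.54% of all genes), 20 without mouse 12_2 (4.36%) and 0 without mouse 9_3 (2.58%). The median interaction was -0.04 without mice 8_4 and 9_3, and -0.0653 with the length trend removed.

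The combined group was also compared to *R. flavefaciens* alone, and here a single member passed the test. *Rpl7l1* (chr17:46773907-46782656, minus strand) had 485, 529 and 587 normalized counts with the bacterium alone (lowest, median and highest) and 438, 453 and 482 with both. Every mouse given both was below every mouse given the bacterium alone. It fell by 0.24 on the log2 scale (SE 0.05; limma adjusted p = 0.0216), and the exact permutation p was 0.00216, the smallest that the design allows. The background in this comparison was high, with 2.23% of all genes called, 9.9% lower at an unadjusted p under 0.05, and 0.828% lower without overlap of the groups. *Rpl7l1* was also called by DESeq2 (adjusted p = 0.00447), by edgeR (adjusted p = 0.0235) and, leaving mice 8_4 and 9_3 aside, by limma (adjusted p = 0.0197).

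Controls lay between the groups for *Rpl7l1*, at 459, 515 and 556, and duloxetine mice at 467, 486 and 521. The combined group was lower than control by a log2 difference of -0.18 ± 0.05 (SE; limma adjusted p = 0.123) and lower than duloxetine by -0.10 ± 0.05 (SE; limma adjusted p = 0.818), and neither passed after adjustment (unadjusted p = 0.00225 and 0.0672). DESeq2 called the difference from control with only those groups in the fit (adjusted p = 0.0469) and without mice 8_4 and 9_3 (adjusted p = 0.0264). This gene has a transcript of 2606 bases, and 9.19% of its windows occur in another gene. The log2 difference from *R. flavefaciens* alone was -0.21 without mouse 9_1 of that group (limma adjusted p = 0.0565) and -0.23 without mouse 11_3 of the combined group (0.0649), so that the size was close to that with all mice while the p missed the threshold. With only the groups compared in the fit the size was the same and the adjusted p was 0.127 by limma, where DESeq2 gave 0.0304.

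The other members in this comparison were mostly lower in the combined group, by little. Of all 82, 79 were lower, with a median of -0.07 and a range of -0.24 to 0.01, and 6 were lower at an unadjusted p under 0.05: *Rpl5*, *Rpl7l1*, *Rpl15*, *Rpl27*, *Rps12* and *Rps19bp1*. That is a smaller share than the 9.9% of all genes. Mouse 9_3 decided the direction of the median. Without it the median was 0.01, with 42 members higher, and without mice 8_4 and 9_3 it was 0.05, with 60 higher. With all mice and the trend on transcript length removed, the median was -0.0281, with 21 members higher. At an unadjusted p under 0.05, 8 members were then lower (9.99% of all genes).

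Members varied together from mouse to mouse. After group means were removed, the correlation of a member with the mean of the other 81 over 24 mice had a median of 0.94, with 62 members above 0.9. Without mouse 9_3 the median was 0.91. All points share libraries and their depth. The highest values were in *Rpl41* (0.974), *Rps24* (0.973), *Rps15* (0.972) and *Rpl27a* (0.972). Just 5 members were under 0.5, and the lowest were *Rps19bp1* (0.12), *Rpl7l1* (0.14) and *Rps27l* (0.34), all outside the standard subunits. Genes outside the list were compared to the mean of the members over 24 mice with group means kept. Those most like it were *Cst3* (0.960), which encodes a secreted protease inhibitor, *Mt3* (0.959), a metallothionein of brain, *Fau* (0.950), *Cpe* (0.944), a prohormone-processing enzyme, and *Tmsb4x* (0.938), which binds actin monomers. With group means removed, the values were 0.946 for *Cst3*, 0.954 for *Mt3*, 0.93 for *Fau*, 0.938 for *Cpe* and 0.918 for *Tmsb4x*. Among the genes most opposed, with group means kept, were *Atp13a3* (-0.961) and *Dmxl2* (-0.959), whose annotated transcripts measure 7310 and 10614 bases.

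Other lists of the translation machinery had smaller medians than the ribosomal proteins between *R. flavefaciens* and control, and limma called 0 genes in the lists below, of which the smallest adjusted p was 0.0687 in complex I. Over all genes tested, 8.86% were higher and 10.8% lower at an unadjusted p under 0.05, and the counts of each list stand against these shares. Of 35 initiation factors, 11 were higher and 3 lower at an unadjusted p under 0.05, with a median log2 fold change of 0.07. The smallest p were in *Eif1b* (0.21), a start-codon factor, and *Eif3g* (0.18), a subunit of eIF3. Of 12 elongation and release factors, 4 were higher and 1 lower (median 0.07), led by *Eef1d* (0.15) and *Eef1b2* (0.19), which recharge eEF1A with GTP. Of 36 ribosome biogenesis genes, 6 were higher and 3 lower (median 0.04), led by *Gar1* (0.29), of the pseudouridylation particles, and *Nob1* (0.20), the nuclease that trims the end of 18S ribosomal RNA.

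Of 25 genes of mTORC1 and its control of TOP mRNAs, 3 were higher and 4 lower (median -0.02), near the shares of all genes. *Lamtor2*, which anchors mTORC1 at the lysosome, had 0.26 and *Tsc2*, which restrains it, -0.16. Of 20 other genes with TOP mRNAs, 8 were higher and 0 lower (median 0.11), led by *Naca* (0.17) and *Btf3* (0.20), the subunits of the nascent polypeptide-associated complex. For comparison outside the cytoplasmic ribosome, 24 of 77 mitochondrial ribosomal proteins were higher (median 0.10, led by *Mrpl34* and *Mrpl12*), 20 of 38 proteasome subunits (median 0.11, led by *Psma7* and *Psma4*) and 27 of 37 complex I subunits (median 0.20, led by *Ndufa1* with 0.34 and *Ndufb9* with 0.33), and 0 in each were lower at that p. Without mice 8_4 and 9_3 the medians were 0.05 for initiation factors, 0.03 for elongation and release factors, 0.03 for biogenesis genes, -0.0007 for mTORC1 genes, 0.05 for other TOP mRNAs, 0.07 for mitochondrial ribosomal proteins, 0.09 for proteasome subunits and 0.12 for complex I subunits, beside 0.10 for the ribosomal proteins. At an unadjusted p under 0.05, 10 mitochondrial ribosomal proteins, 8 proteasome subunits and 19 complex I subunits were then higher, where 4.29% of all genes were. The ribosomal proteins had the highest median of these lists with all mice, and complex I had it without the pair. The pair stood highest of its group in the ribosomal proteins themselves, so this change of rank follows partly from leaving it out.

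In the combined group against control the same lists gave medians near 0 for initiation factors (-0.03), elongation and release factors (-0.02), biogenesis genes (-0.01), mTORC1 genes (-0.01), mitochondrial ribosomal proteins (0.02) and proteasome subunits (-0.02). Other TOP mRNAs had a median of 0.04 and complex I subunits 0.09, beside 0.13 for the ribosomal proteins and 0.10 for other short protein-coding genes. Whether the difference between lists is larger than the spread between mice was not tested.

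Markers of the labelled tissue were present: the 6 genes of excitatory cortical neurons summed to a control median of 100069 normalized counts, most of it *Camk2a*. Markers of other cells moved with some of the comparisons. Of all genes, 8.86% were higher than in control at an unadjusted p under 0.05 with *R. flavefaciens*, 8.08% with both and 2.2% with duloxetine. All 6 microglia markers were higher in each treated group than in control, 4 of them at an unadjusted p under 0.05 with *R. flavefaciens*, 5 with both and 4 with duloxetine. Their sum, led by *Csf1r*, had a low, median and high of 3689, 4069 and 4247 in controls, 3889, 4605 and 5021 with duloxetine, 4118, 4493 and 5081 with *R. flavefaciens* and 3906, 4634 and 5619 with both. The 5 blood markers, led by the globin gene *Hbb-bs*, were higher at that p in 4 with *R. flavefaciens* and 5 with both, with sums of 278, 350 and 448 in controls, 289, 354 and 984 with duloxetine, 418, 535 and 988 with *R. flavefaciens* and 275, 470 and 1090 with both. Their part in the result was not tested.

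Of the 6 inhibitory neuron markers, 3 were higher at that p with *R. flavefaciens* and 1 with both, and the sum, led by *Gad1*, was 9417, 9994 and 10713 in controls and 10283, 10946 and 11433 with the bacterium. For astrocytes, led by *Slc1a3*, the numbers were 1 of 6 with *R. flavefaciens* and 3 of 6 with both. Of choroid plexus markers, 3 of 6 were in the table (not *Folr1*, *Kcne2* and *Aqp1*), and 1 was higher at that p in each group that received the bacterium. Of the 6 endothelial and pericyte markers, led by *Rgs5*, 0 were higher at that p with *R. flavefaciens* and 2 with both. Of the 6 excitatory neuron markers, 1 was higher and 1 lower at that p with *R. flavefaciens*, and 0 with both. Oligodendrocyte and striatum markers had 0 at that p in either direction in both of these comparisons. When mice 8_4 and 9_3 were left out, the markers higher at that p with *R. flavefaciens* were 2 of microglia, 2 of inhibitory neurons, 1 of astrocytes, 1 of excitatory neurons and 0 of blood, choroid plexus and endothelial cells, and 2 of striatum were lower. In that fit 4.29% of all genes were higher at that p. No marker in the table was at 0 in all mice. Over the 24 mice with group means removed, the median deviation of the ribosomal proteins had a correlation of 0.84 with the microglia sum, 0.75 with the endothelial and pericyte sum, 0.71 with astrocytes, 0.59 with blood, 0.48 with oligodendrocytes, 0.41 with inhibitory neurons, 0.34 with choroid plexus, 0.26 with striatum and -0.12 with excitatory neurons. These values describe libraries that share depth and composition, and the part of cell composition in the results was not tested.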

How the data were processed

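Total RNA of mPFC punches was sequenced after poly(A) selection with a library kit that does not mark strand. The deposited table holds a signal, the normalized count, which the authors made by aligning reads with TopHat2 2.1.0 and Bowtie2 2.2.6 and dividing gene counts by DESeq2 1.18.1 size factors. The paper's supplement describes a DESeq2 normalization to a fixed number of sequences for each sample. The normalized counts instead totalled from 13536601 (mouse 8_4) to 14568454 (mouse 9_1). The counting program and the gene filter are not given in the sources used here. The submitters' processing notes name mm9 and the methods GRCm38, and 73 of 82 members have the position of GENCODE vM21 on GRCm38, so positions are given on that build. Whole reads were recovered as multiples of 1 step per library (99.997% of 370875 non-zero values, tolerance 0.0051).

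The 14974 genes whose mean normalized count reached 10 were tested by limma 3.58.1 (R 4.3.3) with a trend on log2(normalized count + 1), all 4 groups in 1 fit, two-sided, with Benjamini-Hochberg adjustment within a comparison and a threshold of 0.05. Fold changes are on that scale, which understates low genes. DESeq2 1.42.0 and edgeR 4.0.16 were run on the recovered reads as alternatives. Single genes were tested by exact permutation in Python 3.11.15 with numpy 2.4.6. The fits were tested on simulated data. Each of the 24 mice is 1 library, and no pair of libraries of a group matched within sampling noise (chi-square per degree of freedom of at least 2.07). Mice were housed in groups, and which of them shared a cage is not given in the sources used here.

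Transcript lengths came from GENCODE vM21. Named genes were those called, the 5 smallest p in 4 comparisons, the highest and lowest 4 per kb, the role lists, the extremes of correlation, and the 2 smallest p of each pathway list. Members and lists were chosen with earlier results of these data known. The alternatives were other pseudocounts, filters, scalings, length correction, fits, tools and left-out mice. Results for a few genes are not reported here.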

Additional observations from a re-analysis of the deposited data

Results flagged for a closer look

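Among 56 groups of 6 mice checked for 13 named members and the shares, 5 had 1 mouse far from the other 5, where chance flags about 1 group in 20. Mouse 9_3 of the *R. flavefaciens* group lay far above the rest of its group for 3 members, with 2905 normalized counts of *Rpl41*, 806 of *Rpl36a* and 1199 of *Rpl39*. Mouse 12_2 of the combined group lay far above for *Rps18* (781 normalized counts), and mouse 1_1 of the control group for *Rpl35a* (1271 normalized counts, in a control range of 1220 to 1271).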

How the results depend on the processing

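No paired analysis was possible because the mouse labels do not repeat across groups, so no numbers pair the mice. The count of members called in *R. flavefaciens* against control was 0 and became 6 with a random block on the first label number (correlation -0.05), 23 by DESeq2, 3 by DESeq2 with only the groups compared (57 of all genes) and 20 at an adjusted p under 0.1 (579 of all genes). Leaving out 1 mouse at a time gave 0 to 18 calls, the highest without mouse 9_2, with 8 without mouse 8_3 and 5 without mouse 9_1. Of all genes tested, limma called 4 with all mice, 616 without mouse 9_2, 427 without mouse 8_3, 239 without mouse 9_1 and 221 with the block. The left-out mice gave a median log2 fold change of 0.15 to 0.26. Removing the trend on transcript length gave a median of 0.0709. For both treatments against control, the count was 5 with only the groups compared, 2 by DESeq2, 20 by DESeq2 with only those groups, 7 by limma, 16 by DESeq2 and 7 by edgeR without mice 8_4 and 9_3 (alternatives chosen after seeing the data), and 0 to 4 leaving out 1 mouse at a time (4 without mouse 9_3, 2 without mouse 12_4). Of all genes, limma called 15 with all mice, 339 without the pair, 123 without mouse 9_3 and 154 without mouse 12_4, and without the pair DESeq2 called 722 and edgeR 271. For the bacterium averaged over the drug it was 5 by DESeq2 (361 of all genes), 3 by DESeq2 without mice 8_4 and 9_3 (98), 3 at an adjusted p under 0.1 (201), and 0 to 2 leaving out 1 mouse (2 without mouse 8_3 with 135 of all genes, and 2 without mouse 9_2 with 69). For both against *R. flavefaciens* it was 0 by limma with only the groups compared (1 by DESeq2) and 0 to 1 leaving out 1 mouse, and the median of -0.07 ranged from -0.1097 to 0.0064 leaving out 1 mouse, reversed without mouse 9_3 (0.0064), and was 0.0502 by limma, 0.0564 by DESeq2 and 0.0589 by edgeR without mice 8_4 and 9_3. The control share was 0.824% without the most abundant member, *Rps2*. Calls for duloxetine against control, both against duloxetine and the interaction stayed at 0 under every alternative run. The causes were not tested.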
